A study of Mus musculus with 24 samples.

Results

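The step from pro-B to small pre-B cells was followed in wild-type mouse bone marrow by ATAC-seq, which cuts and tags DNA that is open to a transposase, so that a peak marks accessible chromatin. The 8 libraries analysed were the 4 labelled WT Small pre-B and the 4 labelled WT Pro-B, of 24 in the series, and they were chosen by these labels alone. Cells were B-cell progenitors sorted from bone marrow of WT mice, with no treatment named in the labels and with age and strain not given in the sources used here. The series also holds WT Pre-pro-B libraries and libraries of the same stages from Mki67-/- mice, which lack the nuclear protein Ki-67 of dividing cells; they are used below to show where the wild-type regions recur and where the step differed between genotypes.

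Pro-B cells rearrange the immunoglobulin heavy chain locus, Igh, by V(D)J recombination, in which the RAG recombinase joins variable, diversity and joining segments. A heavy chain that is made pairs with the surrogate light chain, built of VpreB proteins and lambda5, to form the pre-B receptor. That receptor drives a burst of division under interleukin-7. Cells then leave the cycle as small pre-B cells, which silence the surrogate light chain genes and rearrange the light chain loci, Igk and then Igl.

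Each library came as 1 list of peaks with 84038 to 109713 entries in small pre-B and 94077 to 107673 in pro-B, which merged to 63332 to 85621 and 70307 to 79268 peaks. To compare lists of different length, the 40000 peaks with the highest -log10 q of each library were kept, and rank 1 is the strongest. Opened and closed are therefore relative terms: a closed region is one that no longer ranks among the 40000 strongest peaks. Between the stages, 5 library measures (merged peaks, length covered, and the percent of peaks near gene ends, inside genes and elsewhere) gave no adjusted p under 0.333 (exact permutation tests). In bulk libraries a smaller share of cells with an open site and less opening per cell cannot be told apart. Small pre-B replicate 1 stood apart from its group. Its peaks overlapped those of the other small pre-B libraries with a Jaccard index of 0.755 to 0.765, against 0.854 to 0.865 among the other 3, 0.836 to 0.865 among pro-B libraries and 0.594 to 0.623 between stages without it. The leading counts are given with and without it. Whether each library is its own mouse is not given in the labels, so every p-value here rests on library spread, which may be technical. No peak lay at the Y-linked genes Ddx3y, Kdm5d and Uty in small pre-B replicate 1 and pro-B replicates 1 and 2, while all 3 genes had one in the other 5 libraries.

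The promoters of Vpreb1 and Vpreb2, genes of the surrogate light chain, show the step at single sites. No opened or closed region held a listed start of Igll1, which encodes lambda5. A region over the start of Vpreb1 and one over the start of Vpreb2, which encode the VpreB proteins, had a kept peak in 0 of 4 small pre-B and 4 of 4 pro-B libraries. A region over the start of Vpreb3, a B-lineage gene related to Vpreb1 by name and sequence, had one in 4 of 4 small pre-B and 0 of 4 pro-B libraries, as did one over a start of Ccnd3, which encodes cyclin D3, the D-type cyclin of dividing pre-B cells. The 250 bases before each start are printed from the RefSeq table of GRCm38.p6 (mm10), 5′ to 3′ on the strand of the gene, at chr16:16869256-16869505 on the minus strand and at chr16:17980315-17980564, chr10:75948050-75948299 and chr17:47504801-47505050 on the plus strand. Capitals mark matches, on either strand, to letters that 7 factors of the B lineage are known to favour: CAGNTG (E-box), the Ebf palindrome (searched, with no match here), ATGCAAAT (octamer), TGTGGT (Runx), GTAAACA (Foxo), TGGGAA (Ikaros) and GAGGAA (PU box).
Vpreb1: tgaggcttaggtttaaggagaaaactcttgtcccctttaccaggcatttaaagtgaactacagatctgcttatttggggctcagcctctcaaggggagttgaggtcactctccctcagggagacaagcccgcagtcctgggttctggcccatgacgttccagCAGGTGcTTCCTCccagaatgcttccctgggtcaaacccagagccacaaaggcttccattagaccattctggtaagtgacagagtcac
Vpreb2: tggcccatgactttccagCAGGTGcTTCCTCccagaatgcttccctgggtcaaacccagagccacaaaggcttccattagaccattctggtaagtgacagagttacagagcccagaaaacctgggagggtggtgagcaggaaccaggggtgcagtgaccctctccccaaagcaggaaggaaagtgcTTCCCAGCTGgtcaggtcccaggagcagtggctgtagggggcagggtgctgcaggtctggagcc
Vpreb3: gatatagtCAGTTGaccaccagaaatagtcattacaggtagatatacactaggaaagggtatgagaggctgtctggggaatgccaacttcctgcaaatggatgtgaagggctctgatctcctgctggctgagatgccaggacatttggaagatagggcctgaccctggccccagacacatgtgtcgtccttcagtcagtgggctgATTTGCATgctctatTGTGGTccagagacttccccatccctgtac
Ccnd3: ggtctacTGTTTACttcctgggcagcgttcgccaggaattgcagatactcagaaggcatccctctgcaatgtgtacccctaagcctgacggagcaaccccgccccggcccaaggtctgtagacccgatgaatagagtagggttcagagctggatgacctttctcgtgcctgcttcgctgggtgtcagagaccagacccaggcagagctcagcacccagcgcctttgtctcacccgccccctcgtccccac
Vpreb1 and Vpreb2 share a stretch with an E-box followed by a PU box on the opposite strand, which begins 88 bases before the start of Vpreb1 and 232 bases before that of Vpreb2. Vpreb2 also held an E-box that overlaps an Ikaros match, 64 to 55 bases before its start. Vpreb3 held an E-box, an octamer 45 to 38 bases before the start and a Runx match 30 to 25 bases before it. Ccnd3 held 1 Foxo match, 243 to 237 bases before its start. These matches are letters in a window and say nothing about binding.

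The ranks in the full deposited lists show how far these promoters moved. The Vpreb1 promoter region (chr16:16869135-16869504) was listed in small pre-B replicate 2 alone, at rank 42738, against ranks 12734, 11703, 13294 and 14514 in pro-B replicates 1 to 4. The Vpreb2 region (chr16:17979869-17980771) was listed at ranks 56410, 45495 and 47630 in small pre-B replicates 1, 3 and 4 and not in replicate 2, against 7795, 9416, 8080 and 7571 in pro-B. No WT pre-pro-B library listed either region. In Mki67-/- small pre-B libraries all 4 listed both, at ranks 20818 to 42123 for Vpreb1 and 18296 to 28260 for Vpreb2. Vpreb1 and Vpreb2 are close copies of each other, so reads could have been split between them. The opened Vpreb3 region (chr10:75948178-75948387) ranked 39472, 30451, 26786 and 32734 in small pre-B, and 44976, 47580 and 49245 in pro-B replicates 1 to 3, with no entry in replicate 4. No WT pre-pro-B library listed the Vpreb3 region. The Ccnd3 region (chr17:47504918-47505243) ranked 24460, 23668, 29250 and 25457 in small pre-B and 45740, 40777, 45607 and 54907 in pro-B. All 4 WT pre-pro-B libraries listed the Ccnd3 region, at ranks 29089 to 39502, so it had a kept peak there before the pro-B stage. The stages did not overlap in either opened region, and the small pre-B ranks lay between 23668 and 39472.

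Across the genome, 3796 regions opened, with a kept peak in 4 of 4 small pre-B and 0 of 4 pro-B libraries, and 5677 closed, with the reverse pattern. These are 7.71% and 11.5% of the 49213 regions tested, those found in 2 or more libraries of either stage. A further 25298 regions, 51.4%, had a peak in all 8 libraries. Without small pre-B replicate 1, 4873 regions opened and 5780 closed. Presence in 4 against 0 libraries is a count with no p-value of its own. The same pattern held for 61.2% of opened regions (2324) and 43.1% of closed regions (2444) in the Mki67-/- libraries of the same stages, where it held for 7.22% and 6.97% of all regions tested, and 0 of either class showed the opposite pattern there.

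**Figure D1:**
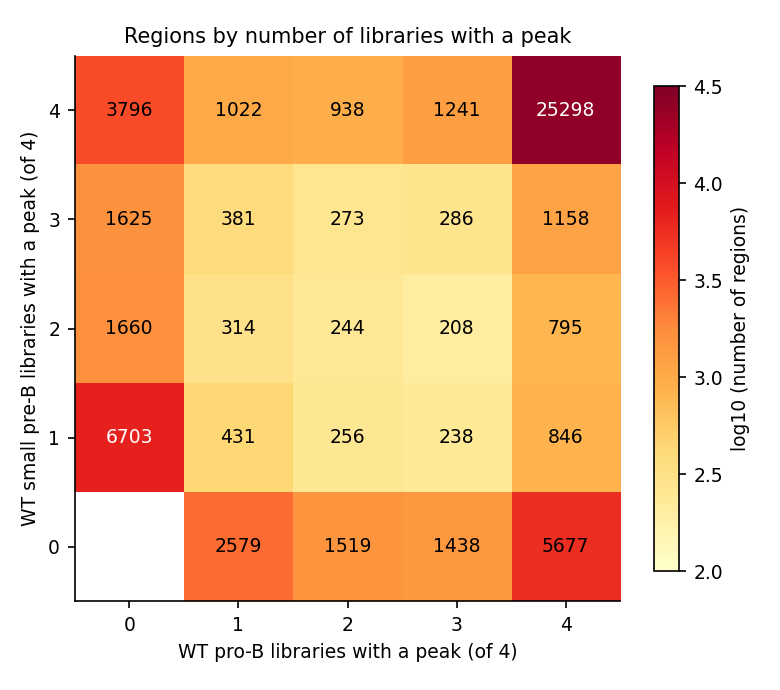
Number of regions by how many WT small pre-B libraries (vertical axis, 0 to 4) and WT pro-B libraries (horizontal axis, 0 to 4) had a peak there; colour is log10 of the number. The corners hold 3796 opened, 5677 closed and 25298 shared regions, and 6703 regions had a peak in 1 small pre-B library and no pro-B library, of which 4230 were in replicate 1.

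The regions that changed lay away from gene starts. Within 1 kb of a gene's ends lay 7.93% of opened and 9.88% of closed regions, against 40.5% of the regions present in all 8 libraries. A listed transcription start fell in 96 opened (2.53%) and 273 closed regions (4.81%). It fell in 8332 shared ones (32.9%), and in 19.4% of all regions tested. The median width was 393 bp for opened, 500 bp for closed and 714 bp for shared regions. In WT pre-pro-B cells, the stage before, 33.5% of opened regions had a peak in 4 of 4 libraries and 54.1% had none. For closed regions these shares were 20.6% and 68.6%, and over all regions tested 51.8% and 36.5%. Both classes thus had a pre-pro-B peak less often than all regions tested. So 1272 opened regions had a peak in all 4 pre-pro-B libraries and in no pro-B library.

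**Figure D2:**
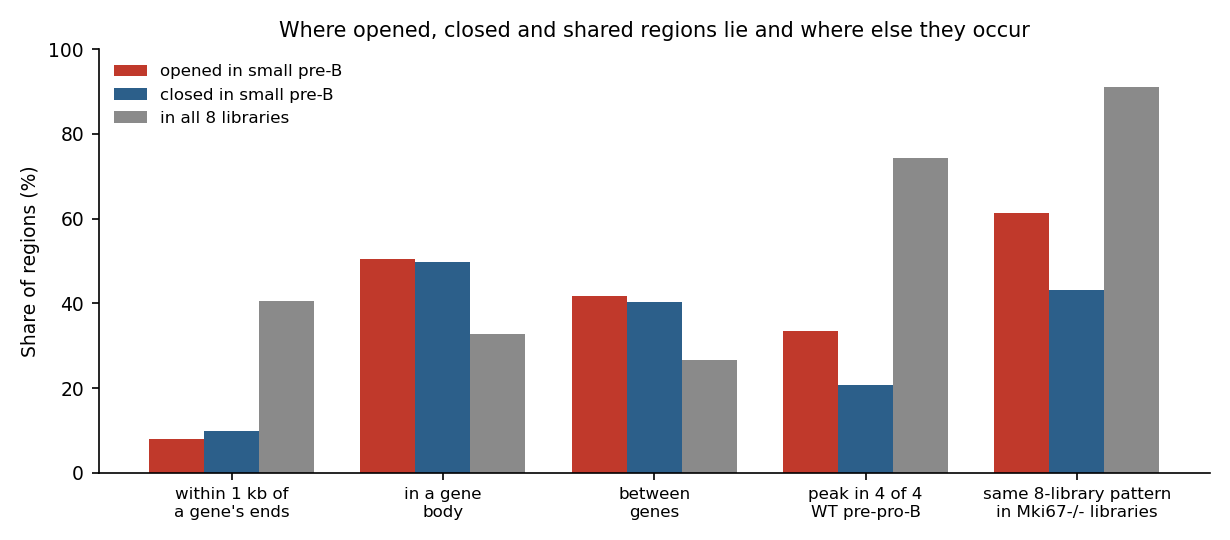
Share of opened, closed and shared regions (percent) near gene ends, inside genes and elsewhere, with a peak in 4 of 4 WT pre-pro-B libraries, and with the same pattern over the 8 Mki67-/- libraries of these stages. Opened and closed regions sat at gene ends less than shared regions (7.93% and 9.88% against 40.5%).

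Absence from the 40000 strongest peaks was often not absence from the list. Of the 3796 opened regions, 827 (21.8%) had no deposited peak in any pro-B library and 1668 had one in all 4. Of the 5677 closed regions, 2311 (40.7%) had no deposited peak in any small pre-B library and 1435 had one in all 4.

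The promoters inside changed regions differed from those inside shared regions in base makeup. The 250 bases before the 113 listed starts in opened regions held a median of 7 CpG, those before the 307 starts in closed regions also 7, and those before the 10884 starts in shared regions 18, beside 6 over all 32619 promoters. Their median GC content was 57.2%, 55.6%, 61.6% and 52.4% in the same order. An E-box was in 50.4% of opened, 46.9% of closed, 36.2% of shared and 44.8% of all promoters. An Ikaros match was in 18.6%, 31.3%, 18.8% and 21.7%, and a PU box in 23.9%, 30.3%, 21.6% and 23.4%. These shares were not tested. Other genes with a start in an opened region, chosen after the list was seen, were Ctss, which encodes cathepsin S of antigen presentation, and Dok3, an adaptor that restrains B-cell receptor signals. Closed regions covered starts of Lef1, a Wnt-responsive factor of early lymphocytes, Gfi1, a transcriptional repressor, Ptpn6, the phosphatase SHP-1, and Lck, a kinase best known from T cells. The Lef1 region (chr3:131109937-131110383) was listed in no small pre-B library and at ranks 25839, 22334, 22419 and 21488 in pro-B.

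The opened and closed regions ranked highest in the stage where they were open held no listed transcription start. This was also true of most opened and closed regions. By mean rank, the 6 opened regions that were strongest in small pre-B lay in Ehd4, Septin9, Pde2a and Pitpnm1, 1377 bp from Med27 and 13258 bp from Malt1, which encodes a protease of antigen receptor signalling. Their mean ranks in small pre-B ran from 4776 to 7076. The Ehd4 region (chr2:120097926-120098236), in the gene of an endocytic recycling protein, ranked 5760, 5839, 3715 and 3788 in small pre-B and 66506, 51426, 64932 and 45945 in pro-B. The 6 closed regions strongest in pro-B lay in Mdc1, which encodes a mediator of the DNA damage checkpoint, Phldb3 and Cep164, and near Bok, Lcp2 and, 406066 bp away, Usp24. Their mean ranks in pro-B ran from 1568 to 2431. The Mdc1 region (chr17:35848072-35848738) was listed at ranks 61050, 51352 and 48594 in small pre-B replicates 2 to 4 and not in replicate 1, against 1712, 2423, 947 and 1190 in pro-B. In the closed set these 6 regions were the best-ranked of pro-B, and each had a kept peak in 4 of 4 Mki67-/- small pre-B libraries. Of all 5677 closed regions, 497 (8.75%) had a kept peak in 4 of 4 Mki67-/- small pre-B libraries, and 2932 (51.6%) in none.

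Antigen receptor loci changed in opposite directions. Igk, the kappa light chain locus, had 147, 160, 163 and 171 peaks in small pre-B replicates 1 to 4 and 28, 30, 21 and 22 in pro-B, a mean of 160 ± 10.0 against 25.3 ± 4.43 (SD, n = 4 each). Igh had 31, 29, 26 and 26 peaks in small pre-B and 96, 90, 91 and 100 in pro-B, a mean of 28.0 ± 2.45 against 94.3 ± 4.65. Igl, the lambda light chain locus, had 10, 13, 12 and 13 peaks in small pre-B and 5 in each pro-B library. So both light chain loci were higher, and Igh lower, in every small pre-B library than in any pro-B library. The Tcra/Tcrd locus had 4, 6, 5 and 5 against 14, 16, 14 and 14 peaks, and Tcrb, the T-cell receptor beta locus, 4, 5, 5 and 5 against 9, 10, 9 and 12. Tcrg, the gamma locus, had 3, 3, 3 and 4 against 3 in each pro-B library, and these overlap. The exact permutation p was 0.0286, the smallest that 4 against 4 libraries can give, for the first 5 loci (adjusted p = 0.0343 over 6 loci) and 1 for Tcrg. With the 20000 strongest peaks the difference in Igh, Igk and Igl kept its direction with an adjusted p of 0.0571, and Tcra/Tcrd and Tcrb did not differ.

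**Figure D3:**
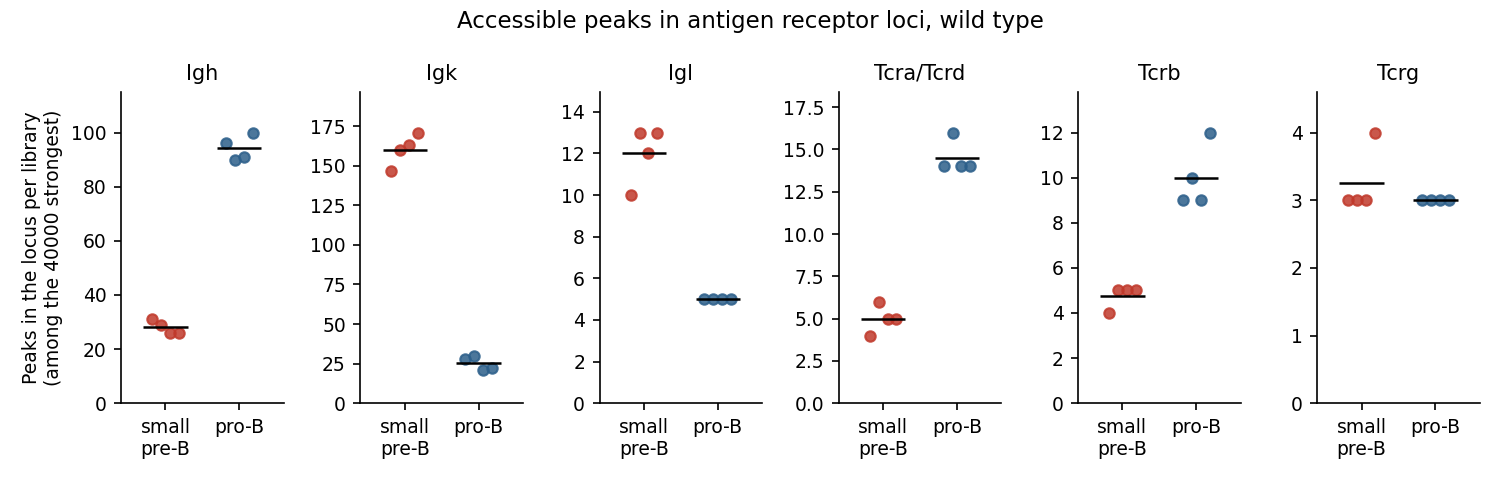
Peaks among the 40000 strongest in each of 6 antigen receptor loci, per library, WT small pre-B at left and WT pro-B at right; points are libraries, lines are means of 4, and each panel has its own vertical axis from 0. Igk and Igl are higher and Igh, Tcra/Tcrd and Tcrb lower in all 4 small pre-B libraries than in any pro-B library.

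The change ran along the variable segments. Of 102 annotated Igk variable segments, 69, 70, 70 and 73 had a peak within 500 bp in small pre-B replicates 1 to 4, against 11, 14, 8 and 10 in pro-B. Of 121 Igh variable segments, 4, 4, 3 and 4 had one in small pre-B, against 41, 41, 38 and 42 in pro-B. The stages did not overlap in either locus (exact permutation p = 0.0286 each). Of the 168 regions tested in Igk (chr6:67555636-70726754), 101 opened and 2 closed. Of the 102 in Igh (chr12:113256204-116009954), 4 opened and 54 closed. The ends of Igh differed. Within 250 kb of the constant-region end it had 11, 10, 9 and 8 peaks in small pre-B and 7, 7, 7 and 8 in pro-B, which overlap. Beyond 2500 kb from that end it had 0 in each small pre-B library and 18, 17, 18 and 19 in pro-B. WT pre-pro-B libraries had 9 to 15 peaks in Igk and 30 to 45 in Igh. In Mki67-/- small pre-B libraries Igk had 148 to 162 peaks and Igh 44 to 54, where WT small pre-B had 26 to 31 in Igh; this difference was not tested here. Outside these loci, 16 of 70 regions opened and 13 closed in chr12:100000001-101000000. In chr11:45000001-46000000, 15 of 40 opened and 0 closed. That window overlaps Ebf1, Clint1, Lsm11, Thg1l and Sox30. None of its opened regions lay in Ebf1 or within 10 kb of it.

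**Figure D4:**
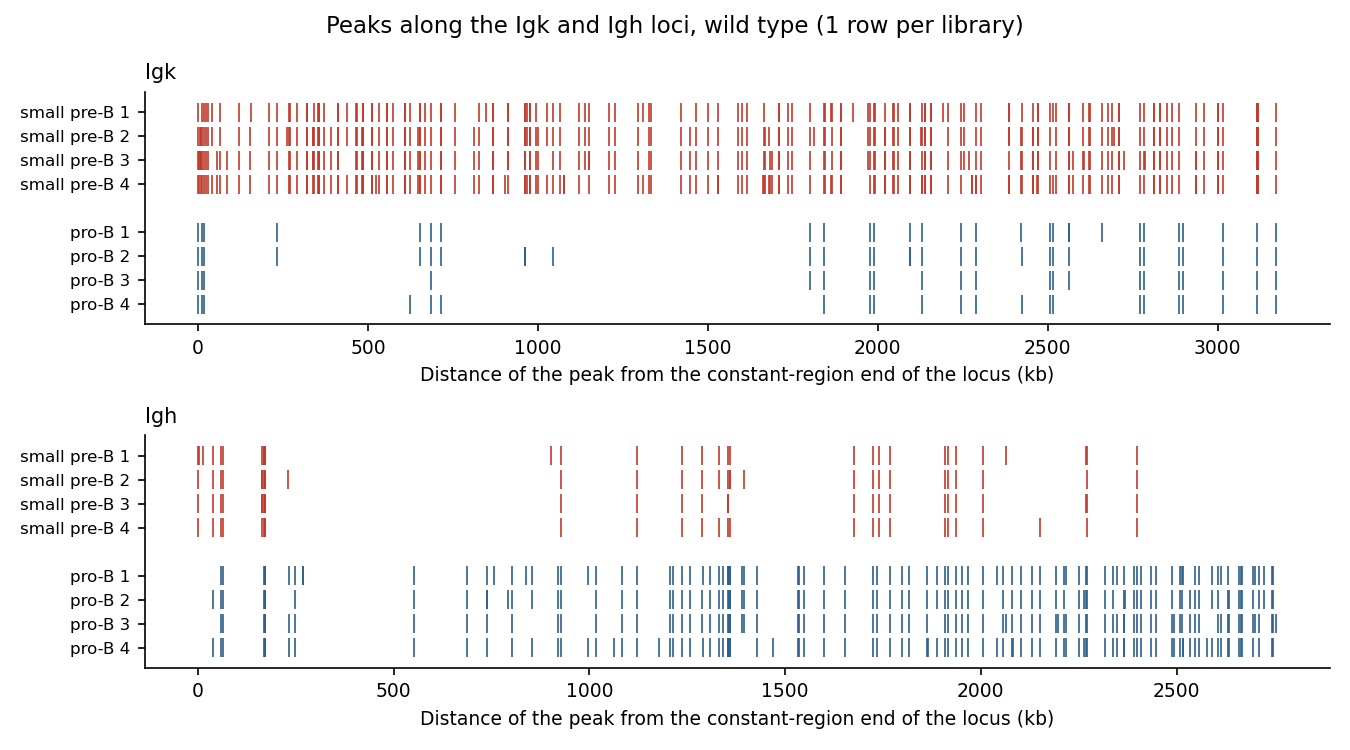
Position of every kept peak along Igk (top) and Igh (bottom), as distance in kb from the constant-region end of the locus; 1 row per library, WT small pre-B above WT pro-B. Igk holds 147 to 171 peaks in small pre-B and 21 to 30 in pro-B rows; in Igh no small pre-B peak lies beyond 2500 kb, where pro-B rows hold 17 to 19.

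Peaks were counted per gene over its body and 10 kb on each side, and 15460 genes with a peak in at least 4 of the 8 libraries were tested with limma on log2(peaks + 1). The number of peaks was higher in small pre-B for 1377 genes (8.91%) and lower for 1591 (10.3%) at an adjusted p under 0.05 (limma, Benjamini-Hochberg). Without small pre-B replicate 1 these counts were 1416 and 1736. The libraries of the stages did not overlap for 1324 genes higher (8.56%) and 1566 lower (10.1%). Of the called genes, 732 higher (53.2%) and 673 lower (42.3%) were also higher or lower without overlap in the Mki67-/- libraries, where this held for 7.68% and 7.52% of all genes tested. Most changes were of a few peaks: the difference of the means was at most 1 peak for 415 of the genes higher and 561 of those lower, and at least 3 peaks for 184 and 209. Windows of neighbouring genes share peaks, so calls of neighbours are not independent. As 4979 genes (32.2%) had the same number of peaks in all libraries of each stage, their p-values rest on a variance set by rule, and for such genes the adjusted p given below uses a prior variance from the genes that vary. With that prior, chosen after the data were seen, 1729 genes were higher and 1982 lower.

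In the list of 6 surrogate light chain and pre-B receptor genes, 3 fell (50%, against 10.3% of all genes) and 0 rose. Vpreb1 had 3 peaks in each small pre-B library and 6, 6, 6 and 5 in pro-B, a log2 difference of -0.75 ± 0.054 (SE; limma adjusted p = 7.42e-05). Igll1, which encodes lambda5 and neighbours Vpreb1, had 4 in each small pre-B library and 7, 7, 6 and 6 in pro-B (-0.58 ± 0.054, adjusted p = 0.000334). Its window holds the Vpreb1 promoter, and within the gene body alone the difference was 0. Vpreb2 had 1, 1, 2 and 2 against 4, 5, 4 and 4 (-1.09 ± 0.18, adjusted p = 0.00523). The call on Vpreb2 was lost with the 50000 strongest and with all deposited peaks, by fold enrichment and with the replicate block. Vpreb3, Cd79a and Cd79b, of which the last pair encode the signalling chains of the receptor, did not pass. The list's median log2 difference was -0.43, against 0 over all genes tested.

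Of 15 genes of V(D)J recombination, 3 rose (20%, against 8.91% of all genes) and 0 fell, with a median log2 difference of 0.16. Polm, which encodes DNA polymerase mu, used in joining light chain segments, had 5 peaks in each small pre-B library and 2 in each pro-B library (adjusted p = 1.06e-05 with the prior from varying genes), and 3 regions in its window opened. Prkdc, the catalytic subunit of DNA-PK, had 4, 3, 3 and 3 against 2 in each (0.50 ± 0.078, limma adjusted p = 0.00484). Poll, DNA polymerase lambda, had 5 in each against 4 in each, and lost the call with the prior from varying genes (adjusted p = 0.0592). Rag1, a subunit of the recombinase, had 2 peaks in all 8 libraries, and Rag2, its partner, had 1, 2, 3 and 2 against 2 in each. Dntt, terminal transferase of pro-B cells, had 7, 7, 5 and 6 against 7 in each and did not pass.

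Of 20 factors of pre-B differentiation, 4 rose (20%, against 8.91% of all genes) and 0 fell, with a median log2 difference of 0.23. Spib, an Ets factor, had 8, 10, 9 and 8 peaks in small pre-B and 5, 6, 6 and 6 in pro-B (0.53 ± 0.087, limma adjusted p = 0.00558). When peaks were ranked by fold enrichment, Spib was called lower (log2 difference -0.56, limma adjusted p = 0.0474). Rel, the NF-kappaB subunit c-Rel, had 4 in each against 2 in each (adjusted p = 0.000142 with the prior from varying genes), and -0.058 with all deposited peaks on the log2 scale. Pou2af1, the octamer co-activator, had 3 in each against 2 in each (adjusted p = 0.00585 in the same fit), and Nfkb2 5 in each against 4, 4, 3 and 4 (limma adjusted p = 0.0245), where all deposited peaks gave a log2 difference of -0.21. Foxp1, a forkhead factor that pre-B cells need, had 38, 50, 50 and 49 peaks in small pre-B and 36, 39, 36 and 39 in pro-B, where replicate 1 overlapped the pro-B range (0.30 ± 0.097, limma adjusted p = 0.0724). Without small pre-B replicate 1 this list had 7 genes higher: Foxp1 (adjusted p = 0.000901), Pou2f2, Irf4 and Irf8 passed and Nfkb2 did not (adjusted p = 0.0577), as without any other small pre-B library. Irf4, the factor that supports light chain rearrangement, had 4, 6, 5 and 6 peaks against 4 in each.

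Among early B-lineage factors, 3 of 14 rose (21.4%, against 8.91% of all genes) and 1 fell, with a median of 0. Runx1, a factor of blood progenitors, had 9, 8, 8 and 9 peaks in small pre-B and 14, 15, 14 and 17 in pro-B (-0.75 ± 0.074, limma adjusted p = 0.000467), and 7 regions in its window closed and 1 opened. Bcl11a, needed for B-cell development, had 10, 9, 9 and 9 against 6 in each (0.55 ± 0.034, adjusted p = 2.78e-05), but the log2 difference was -0.021 with all deposited peaks. Ets1 had 11, 13, 13 and 13 against 10, 10, 9 and 9 (0.36 ± 0.067, adjusted p = 0.00928). Sox4 had 5 in each against 4 in each and lost the call with the prior from varying genes (adjusted p = 0.0592). With the 20000 strongest peaks Sox4 was called lower (log2 difference -0.32, limma adjusted p = 1.29e-13 without that prior). Ebf1 had 13, 15, 15 and 16 against 16, 16, 18 and 20 peaks, and Pax5, the factor that maintains B identity, 10, 10, 8 and 12 against 13 in each; neither passed.

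Genes with a level number of peaks could still exchange regions. Of 206 listed genes tested, 101 (49.0%) had an opened or closed region in their window and 34 (16.5%) had both, against 33.5% and 5.75% of all genes tested; window lengths were not matched. Of the 34 listed genes with both, 27 (79.4%) had a number of peaks that did not pass the test, and over all genes this share was 76.2%. Foxp1 had 7 opened and 6 closed regions. Ebf1 had 2 opened and 4 closed, and all 6 lay in its body without a kept peak in any pre-pro-B library. Bach2, a repressor that delays plasma cell fate, had 3 opened and 3 closed regions at 15, 14, 12 and 13 peaks in small pre-B and 12, 14, 13 and 11 in pro-B. Tcf12 and Ikzf1, an E protein and Ikaros, had 3 opened with 3 closed and 3 opened with 2 closed regions. Ccnd3, with the opened start shown above, had 2 opened and 3 closed.

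In the interleukin-7 receptor list 1 of 16 rose and 1 fell, 6.25% each, against 8.91% and 10.3% of all genes. Socs1, a feedback inhibitor of the receptor's kinases, had 3 peaks in each small pre-B library and 2 in each pro-B library (adjusted p = 0.00585 with the prior from varying genes). Socs2, a related inhibitor, had 5, 4, 4 and 4 against 6, 7, 5 and 6 (limma adjusted p = 0.0361), where the stages overlap at 5 peaks. The call on Socs2 was lost without any one of 6 of the 8 libraries. Il7r, the receptor's alpha chain, had 2 in each against 2, 2, 3 and 3, and Myc 3, 3, 3 and 4 against 3 in each. In B-cell receptor signalling, 1 of 16 rose (6.25%) and 2 fell (12.5%), near the 8.91% and 10.3% of all genes. Blk, a Src-family kinase of B cells, had 7 in each against 5, 6, 5 and 5 (adjusted p = 0.004), while Fyn, another such kinase, had 7, 6, 7 and 6 against 11, 12, 12 and 11 (adjusted p = 0.000204). Plcg2, the phospholipase below the receptor, had 9, 8, 9 and 8 against 11, 12, 13 and 11 (adjusted p = 0.00498) and turned round with the 20000 strongest peaks (log2 difference 0.25).

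**Figure D5:**
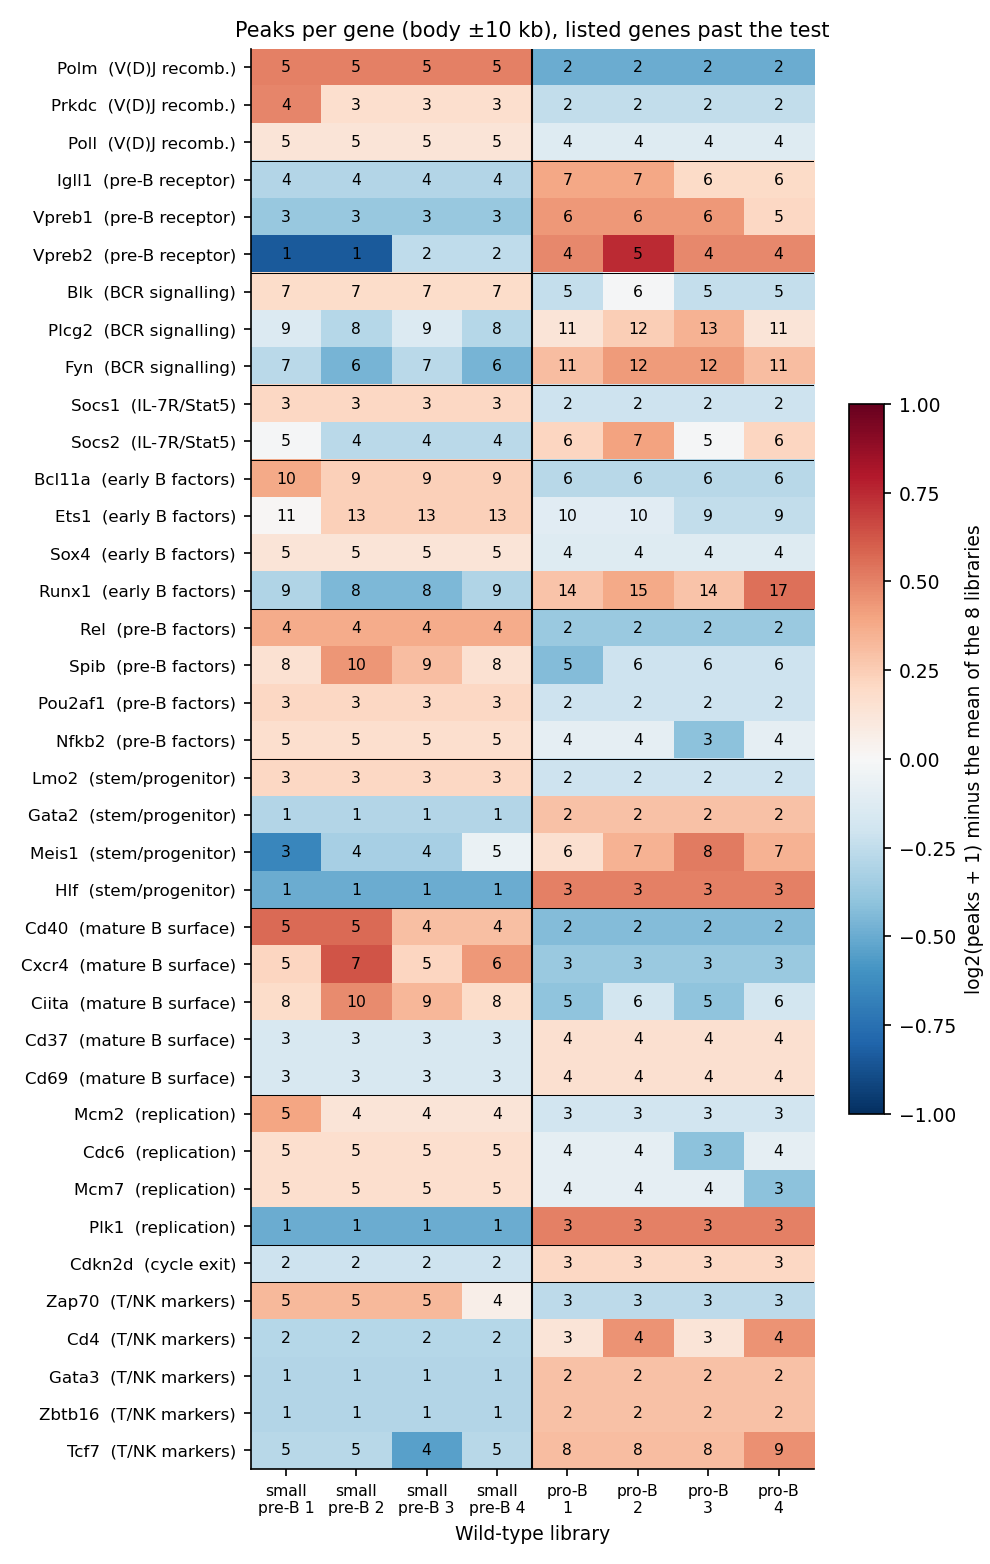
Peaks per gene (body and 10 kb on each side) in each WT library, small pre-B at left of the line and pro-B at right, for genes past the test in the lists named in brackets (up to 5 per list); numbers are peaks and colour is log2(peaks + 1) minus the mean of the 8 libraries. Vpreb1, Igll1 and Vpreb2 are lower, and Spib, Rel, Cd40 and Cxcr4 higher, in all 4 small pre-B libraries.

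Among 25 genes of the mature B-cell surface and antigen presentation, 3 rose and 2 fell, shares of 12% and 8% that are near the 8.91% and 10.3% of all genes. Cd40, the receptor for T-cell help, had 5, 5, 4 and 4 peaks against 2 in each (0.87 ± 0.074, limma adjusted p = 0.000199). Cxcr4, the receptor that holds cells in marrow, had 5, 7, 5 and 6 against 3 in each (0.74 ± 0.098, adjusted p = 0.00202). Ciita, the master regulator of MHC class II, had 8, 10, 9 and 8 against 5, 6, 5 and 6 (0.58 ± 0.092, adjusted p = 0.00484). Cd37, a tetraspanin, and Cd69, an activation marker, had 3 in each against 4 in each. Without small pre-B replicate 1, H2-Ab1 and Ms4a1 passed as well, which gives 5 higher.

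Of 25 genes of DNA replication and mitosis, 3 rose (12%, against 8.91% of all genes) and 1 fell (4%, against 10.3%): Mcm2 and Mcm7, subunits of the replicative helicase, and Cdc6, which loads it, were higher, and Plk1, a mitotic kinase, had 1 peak in each small pre-B library and 3 in each pro-B library. Mcm7 and Cdc6 lost the call without any 1 of the 4 small pre-B libraries (adjusted p = 0.0577 without replicate 1), and Cdc6 turned round with the 20000 and the 50000 strongest peaks and was lower with all deposited peaks (limma adjusted p = 0.0199), where Mcm2 had a log2 difference of -0.14. Mki67 itself had 1 peak in all 8 libraries. Of 11 cycle exit genes 1 fell (9.09%, against 10.3% of all genes) and 0 rose. This was Cdkn2d, which encodes the inhibitor p19, with 2 peaks in each small pre-B and 3 in each pro-B library. Without small pre-B replicate 1 Cdkn1b, the inhibitor p27, passed too, as higher.

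Of 16 stem and progenitor genes 15 were tested, of which 3 fell (20%, against 10.3% of all genes) and 1 rose, with a median of -0.21. Meis1, a homeobox factor of stem cells, had 3, 4, 4 and 5 against 6, 7, 8 and 7 peaks (-0.69 ± 0.14, limma adjusted p = 0.0136). Hlf had 1 in each against 3 in each, and Gata2 1 in each against 2 in each, while Lmo2 had 3 in each against 2 in each. Without small pre-B replicate 1, Mecom passed as well, as lower.

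Markers of the labelled cells and of other cells moved too. Over all genes tested, 8.91% were higher and 10.3% lower. The 5 pro-B markers summed to 16 to 18 peaks in small pre-B libraries and 22 to 25 in pro-B, with Igll1 and Vpreb1 lower (40%). These genes are neighbours, and the closed regions in the Igll1 window are the same as those in the Vpreb1 window. Peaks there enter the sum once for each gene, so the 2 calls are not independent. The 6 pre-B markers summed to 29 to 35 and 26 to 29, with Spib higher (16.7%), though lower when peaks were ranked by fold enrichment. Of 17 T, NK and innate lymphoid markers, 12 were tested. Of these, 5 fell (41.7%: Cd4, Gata3, Il2rb, Zbtb16 and Tcf7) and 1 rose (8.33%: Zap70). The list summed to 24 to 27 peaks in small pre-B and 33 to 34 in pro-B. Cd3e, Cd8a, Ncr1 and Themis, which define those cells, had no peak in any of the 8 libraries. Of 15 myeloid markers, 11 were tested. Csf1r and Adgre1 rose (18.2%) and Fcgr3 fell (9.09%), with 25 to 27 peaks against 18 to 23, and S100a8 and Ctsg at 0 in all 8. The call on Adgre1 was lost without any 1 of 6 libraries, small pre-B replicate 1 among them (adjusted p = 0.0735). Erythroid and megakaryocyte markers summed to 18 to 23 against 16 to 19 peaks. Of 9 tested, 1 was higher (11.1%, Gp1ba) and 0 lower, with Gata1 at 0 in all 8. Plasmacytoid dendritic markers summed to 20 to 23 against 23 in each. Of 6 tested, Tlr9 was higher (16.7%) and Bst2 and Runx2 lower (33.3%), with Klk1 at 0. With all deposited peaks Tlr9 was lower (log2 difference -0.62, limma adjusted p = 0.00788). The 4 plasma cell markers summed to 12 to 13 against 11 to 12, with 0 past the test. With the prior from varying genes 1729 of all 15460 genes tested were higher and 1982 lower. In that fit 5 myeloid markers were higher and 2 lower, and 2 T, NK and innate lymphoid markers higher and 6 lower. It also gave 2 erythroid and megakaryocyte markers higher and 1 lower, 2 plasmacytoid dendritic markers higher and 2 lower, and 1 plasma cell marker lower. The part of such cells in the results was not tested.

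The 15 genes named per direction by smallest adjusted p had no variation within a stage, so their order rests on the variance set by rule. The last 9 named were taken in alphabetical order from 69 tied genes higher and 23 tied genes lower. The 15 higher had 2 or 1 peaks in each small pre-B library and none in pro-B, among them Msr1, a scavenger receptor, and Ccl22, a chemokine. The 15 lower had none in small pre-B and 3 or 2 in each pro-B library, among them Kdr, the vascular growth factor receptor, Cst7, a protease inhibitor, and Epha5, an ephrin receptor. Among genes past the test, some with wide differences in mean peaks were chosen after their values were seen. Adam19, a membrane metalloprotease, had 7, 9, 9 and 9 peaks in small pre-B and 2, 3, 1 and 1 in pro-B (1.84 ± 0.25, limma adjusted p = 0.00245). Fam53b had 14, 18, 17 and 17 against 8, 9, 10 and 9, and Ago2, an Argonaute of the miRNA pathway, 15, 17, 18 and 17 against 8, 10, 10 and 10. Vsir, the checkpoint receptor VISTA, had 12, 16, 14 and 13 against 8, 6, 6 and 7. Magi1, a scaffold of cell junctions, had 1 in each small pre-B library and 7, 8, 8 and 7 in pro-B (-2.08 ± 0.048, adjusted p = 6e-08). Atxn1, a chromatin-bound repressor, had 2, 3, 3 and 3 against 10, 9, 12 and 12 (-1.65 ± 0.14, adjusted p = 0.000165), and Slc39a11, a zinc transporter, 13, 10, 10 and 8 against 21, 22, 21 and 21. Only genes whose stages did not overlap could be chosen here, so the lack of overlap in these genes is not a separate result.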

How the data were processed

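Cells were sorted and ATAC-seq libraries made as the labels describe, and the submitters' processing notes name Trimmomatic, MACS2, deepTools, DiffBind and DESeq2, without versions, and mm10. Each deposited list holds a MACS2 score, a fold enrichment ratio of the summit over background, and -log10 p and -log10 q values of the authors, of which -log10 q ranked the peaks and fold enrichment served as an alternative. The deposited score was not needed. Entries that overlapped or touched were merged on chromosomes 1 to 19 and X, and the 40000 peaks with the highest -log10 q per library kept. A region, the union of overlapping peaks, was present where a peak overlapped it by 1 bp. Read totals are unknown. A background coverage recovered from deposited fold enrichments and p-values was 2.4 to 3.7 in small pre-B and 2.85 to 3.34 in pro-B, so no counting interval is given. Protein-coding genes (21631) came from RefSeq GRCm38.p6. All 231 entries of 17 gene lists matched a symbol. Gene tests used limma 3.58.1 in R 4.3.3 (trend and robust variances, Benjamini-Hochberg, threshold 0.05); variances of 0 were set to a small share of the median of the others, the prior variance from varying genes was added after the data were seen, and the fit was tested on simulated data. Loci and library measures had two-sided exact permutation tests in Python 3.11.15. Alternatives were 20000, 50000 and all deposited peaks, ranking by fold enrichment, half-covered regions, gene bodies, other filters and transformations, leaving out each library, the replicate number as a block, sex and another prior. Members and lists were chosen with earlier results of these data known. Named were Mki67, the 6 loci, per direction 15 genes with the smallest adjusted p and 6 regions, up to 5 past the test per list and all members of 5 lists.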

Additional observations from a re-analysis of the deposited data

Results flagged for a closer look

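In 48 groups of 4 library values, 5 had a value that lay apart from the other 3 beyond Dixon's 95% limit. About 1 in 20 groups of values without ties does so by chance. Where the other 3 values are equal, as in the pro-B sums below, a gap of any size passes, so that rate does not hold. Small pre-B replicate 1 had 4230 regions that no other of the 8 libraries had, against 717, 855 and 901 in replicates 2 to 4. Its pre-B differentiation factors summed to 168 peaks, against 194, 195 and 191. In pro-B, the V(D)J recombination list summed to 41 peaks in replicate 2 and 40 in the others, the interleukin-7 receptor list to 76 in replicate 3 and 80 in the others, and the pre-B markers to 29 in replicate 2 and 26 in the others.

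The step differed between wild-type and Mki67-/- mice in an interaction test over the 16 libraries for 158 of 15744 genes (1.00%; limma adjusted p under 0.05). The difference of small pre-B minus pro-B on the log2(peaks + 1) scale was higher in WT for 61 of them and lower for 97. Myh7, a cardiac myosin, had 0 peaks in each WT small pre-B and 2 in each WT pro-B library, and 1 in each Mki67-/- small pre-B and 2 in each Mki67-/- pro-B library. Abcc5, a transporter, had 2 and 1 in the WT and 1 and 2 in the Mki67-/- libraries of the same stages. Neither gene varied within a group, so their calls in this test rest on the variance set by rule. With the prior from varying genes, 138 genes passed. Without Mki67-/- small pre-B replicate 1 the count was 254.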

How the results depend on the processing

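Counts moved by over 1.5 times in 4 cases. With the 20000 strongest peaks 3000 regions closed and with all deposited peaks 9564, and with all deposited peaks 848 genes were higher. Leaving out 1 library gave 3938 to 4873 opened and 5780 to 6197 closed regions, 1106 to 1416 genes higher and 1103 to 1736 lower, and 153 to 254 genes for the difference between genotypes, where 254 came without Mki67-/- small pre-B replicate 1, against 158 with all libraries. With the 20000 strongest peaks the locus differences in mean peaks were -20.75 for Igh, 64.25 for Igk and 1.25 for Igl (adjusted p = 0.0571 each, exact permutation) and 0 for Tcra/Tcrd and Tcrb; fewer peaks are counted there by construction. The library measures changed no call without any 1 library.

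Deviations of same-numbered libraries correlated weakly (0.0360, 0.0254, 0.00173 and 0.0271), and the highest value between different numbers was 0.0161. Pro-B replicate 2 lacked the Y-linked peaks that small pre-B replicate 2 had, so the numbers were not taken to pair the libraries. Whether the other numbers pair is not settled by these values. Small pre-B replicates 1, 2 and 4 correlated best with their own number in pro-B and replicate 3 with pro-B replicate 4. With the replicate block 1098 genes were higher and 1279 lower. The locus differences with the block, -66.25 for Igh, 135 for Igk, 7 for Igl, -9.5 for Tcra/Tcrd and -5.25 for Tcrb, had an adjusted p of 0.15, since 4 pairs cannot reach the threshold.

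Of 259 genes named by rule or list and tested, 99 passed. Over all alternatives their values stayed on the same side of the threshold in 4378 cases, lost the call in 186 and gained it in 142. Values of genes that passed turned round in 24 further cases. For genes that did not pass, a change of direction was not counted. The log2 differences that turned round were, with the 20000 strongest peaks, Plcg2 0.25, Tcf7 0.10, Cdc6 -0.21 and Sox4 -0.32; with the 50000 strongest, Aknad1 -0.29 and Cdc6 -0.17; with all deposited peaks, Aknad1 -0.042, Cc2d2a -0.46, Mcm2 -0.14, Zbtb16 0.18, Tlr9 -0.62, Rel -0.058, Bcl11a -0.021, Cdc6 -0.30, Cd300c2, Cd300ld4, Cd300ld2 and Sox4 -0.15 each, Poll -0.038 and Nfkb2 -0.21; by fold enrichment, Spib -0.56, Plcg2 0.056 and Poll -0.23; and by gene body, Il2rb 0.15. The cause was not tested. Peaks per gene are small whole numbers, so a difference of 1 peak can decide a call, and read depth is unknown.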
